A study of Homo sapiens with 12 samples.

Results

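The genes described here are 44 interferon-stimulated and antigen presentation genes, out of 58302 gene identifiers in the RNA-seq count table. They were chosen by symbol, as known interferon targets and genes of the class I presentation pathway, with earlier results of these data known. All 44 were found in the table by their Ensembl identifiers, and all 44 were among the 15826 genes with enough counts to be tested. The study induced autophagy in oral squamous cell carcinoma (OSCC) cells with rapamycin, an inhibitor of the mTOR kinase, and asked which mRNAs changed in level and in N6-methyladenosine (m6A), a methyl mark on adenosines within mRNA. RNA-seq comprised 4 libraries of human OSCC cells, 2 given 100 nM rapamycin and 2 controls without it, numbered 1 and 2 in each group. Their depths were 18492273 counts for rapamycin 1, 18763045 for rapamycin 2, 21653290 for control 1 and 23763098 for control 2. MeRIP-seq, in which RNA fragments carrying m6A are pulled down with an antibody and compared with input RNA, was done on HSC3 and CAL33 cells, given 100 nM rapamycin for 3 days or none, with 1 input and 1 immunoprecipitated (IP) library in each case. HSC3 and CAL33 are established lines from human tongue carcinomas. The labels give no duration of rapamycin for RNA-seq and do not say that libraries of 1 group came from separate cultures. With number and treatment both in the fit, p-values rest on how far the rapamycin difference disagrees between the numbered pairs, moderated across genes. They measure no spread between replicates of 1 number and treatment, since each has 1 library. Whether that disagreement is technical is not given.

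The labels of the RNA-seq libraries and the libraries themselves go against each other, and every RNA-seq result rests on this. The labels name HSC3 for both rapamycin libraries and CAL33 for both controls, whereas in MeRIP-seq number 1 is HSC3 and number 2 is CAL33 in both treatments. Across all tested genes, log2 levels correlated at 0.970 between the libraries numbered 1 and at 0.957 between those numbered 2, against 0.810 to 0.856 for the other pairs of libraries, a description over genes that are not independent replicates. The 357 genes with m6A peaks in both HSC3 lists and in neither CAL33 list had a median log2 difference of −0.40 for control 2 against control 1 and of −0.47 for rapamycin 2 against rapamycin 1. The 189 genes with peaks in the CAL33 lists alone had medians of 0.43 and 0.43 in the same comparisons. For rapamycin against control of the same number, the medians of these groups of genes lay between −0.03 and 0.04. The RNA-seq libraries are therefore named below by treatment and number only, and none was regrouped. If the labels were right, treatment and cell line could not be told apart in RNA-seq. If the numbers meant what they do in MeRIP-seq, number 2 against number 1 would be CAL33 against HSC3. Each numbered pair would then be 1 line with 1 library per treatment.

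Markers were checked against the labelled cell type. Between 6 and 8 of 8 epithelial markers were above 1 CPM (counts scaled to the library's depth, after TMM normalization) in each library, and KRT14 was at 0 in both libraries numbered 1. Summed epithelial markers were at 583 CPM in rapamycin 1, 707 CPM in control 1, 3270 CPM in rapamycin 2 and 4250 CPM in control 2. The markers did not move together. KRT5, a keratin of basal cells, fell with rapamycin from 34.2 to 6.1 CPM in pair 1 and from 1700 to 327 CPM in pair 2 (log2 fold change −2.43 ± 0.27, adjusted p = 6.06e-06 by edgeR), and KRT6A fell from 4.39 to 0.421 CPM and from 374 to 5.38 CPM (−5.46 ± 0.62, adjusted p = 0.00374), while KRT17, at 1350 CPM in control 2 and 2120 CPM in rapamycin 2, did not pass (0.38 ± 0.28). KRT14 was also lower, from 221 counts in control 2 to 23 in rapamycin 2. With 0 counts in both libraries numbered 1, that difference rests on 1 library against 1. Between numbers, the keratins, TP63 and DSG3 were higher in number 2. Of these, KRT14 had enough counts to be tested through number 2, where it is high, and KRT6A had 8 counts in rapamycin 1. In contrast, CDH1, which encodes E-cadherin, was higher in number 1 (−0.67 ± 0.26 for number 2, adjusted p = 0.0403) and EPCAM did not pass (−0.59 ± 0.26, adjusted p = 0.0685). The leukocyte marker PTPRC was at 0 in all 4 libraries, as were CLEC4C and IL3RA of plasmacytoid dendritic cells, a cell type known for making interferon. The 7 leukocyte markers together reached at most 3 CPM, with ITGAM as the most abundant at 2.47 CPM in rapamycin 1. The 3 endothelial markers summed to between 1.42 and 1.71 CPM in number 1 and between 30.8 and 45.4 CPM in number 2. Most of the latter was CDH5, at 25.6 CPM in control 2 and 41.6 CPM in rapamycin 2. Of the fibroblast markers, COL1A2, COL3A1 and DCN were at 0 throughout. COL1A1 was at 29.3 CPM in rapamycin 1, 28.4 CPM in rapamycin 2, 22 CPM in control 1 and 8.79 CPM in control 2, and PDGFRB was at 14.8 CPM in rapamycin 1, 10.3 CPM in control 1 and 0 in both libraries numbered 2. The part of these differences in the results below was not tested. In bulk RNA, fewer cells of a type and less RNA per cell cannot be told apart.

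Interferons are secreted proteins that bind receptors on the cell surface and activate the kinases JAK1 and TYK2. Type I and type III interferons act through a complex of STAT2, IRF9 and a second STAT protein that binds interferon-stimulated response elements in target promoters, while type II interferon acts largely through STAT homodimers and IRF1. The targets sense viral RNA, block steps of viral replication, tag proteins with the ubiquitin-like protein ISG15, and raise the display of peptides on MHC class I molecules, which T cells read. Many tumour cells express part of this program without added interferon, and its level differs widely between cell lines.

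Most of the promoters of these genes hold the core of the response element, and those below are shown because their genes passed a test in the comparisons described further on. The RefSeq promoter table (GRCh38.p14, 250 bases before to 50 after each start site) held 35 of the 44 genes. IRF7, IFIT2, OAS2, OASL, MX2, IFITM2, USP18, HLA-E and NLRC5 had no entry. The core searched was GAAANNGAAA, where N is any base, on either strand, with overlapping matches counted separately. It was found in 25 of the 35 genes (71.4%), against 4.38% of the 27305 genes of the table, and in 29 of their 44 promoters (65.9%), against 3.57% of all 35116 promoters. A longer form, GAAANNGAAAC, was in 19 of the 35 genes (54.3%) and in 0.952% of all genes. Since the members were chosen as known interferon targets and class I genes, these high shares go with the choice. They are not a result of these data. The core was present in 17 genes at 2 or more positions of 1 promoter. STAT2, IRF1, IRF9, DDX58, OAS1, XAF1, IFI35, HERC6, HLA-B and HLA-C had an entry without these letters. The sequences run 5′ to 3′ on the gene's strand from position −200 to position 10 around the start site, with the core in capitals.
DDX60, chr4:168318743-168318952, minus strand: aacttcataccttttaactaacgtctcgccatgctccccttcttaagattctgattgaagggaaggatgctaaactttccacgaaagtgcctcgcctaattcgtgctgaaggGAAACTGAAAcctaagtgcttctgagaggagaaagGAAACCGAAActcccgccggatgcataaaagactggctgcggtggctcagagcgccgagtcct
RSAD2, chr2:6877577-6877786, plus strand: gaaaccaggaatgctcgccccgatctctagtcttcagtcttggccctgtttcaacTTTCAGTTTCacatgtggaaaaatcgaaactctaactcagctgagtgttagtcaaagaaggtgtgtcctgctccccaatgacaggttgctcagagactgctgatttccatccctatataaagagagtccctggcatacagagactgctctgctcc
BST2, chr19:17405621-17405830, minus strand: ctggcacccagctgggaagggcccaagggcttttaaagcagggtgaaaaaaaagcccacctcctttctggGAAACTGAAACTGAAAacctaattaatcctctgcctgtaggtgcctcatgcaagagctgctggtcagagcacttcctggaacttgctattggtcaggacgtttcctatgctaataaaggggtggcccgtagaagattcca
IFITM1, chr11:313840-314049, plus strand: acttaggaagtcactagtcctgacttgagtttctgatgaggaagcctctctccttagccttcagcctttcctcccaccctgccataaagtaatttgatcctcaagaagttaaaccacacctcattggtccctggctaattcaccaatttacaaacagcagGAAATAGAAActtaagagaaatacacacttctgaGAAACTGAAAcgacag

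The cores of DDX60 began at positions −88 and −53, that of RSAD2 (on the opposite strand, in the second of its promoters in the table) at −145, those of BST2, which overlap each other, at −130 and −124, and those of IFITM1 at −40 and −6. Of the genes that were higher in number 2 in RNA-seq, 16 of the 20 with an entry held the core (80%), as did 9 of the 14 that did not pass that test (64.3%). The 16 include RSAD2, BST2, IFI44L and IFITM1, which had enough counts to be tested through number 2, where they are high. The difference between the shares was not tested. A match is a description of the letters in this window and says nothing of binding.

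**Figure D1:**
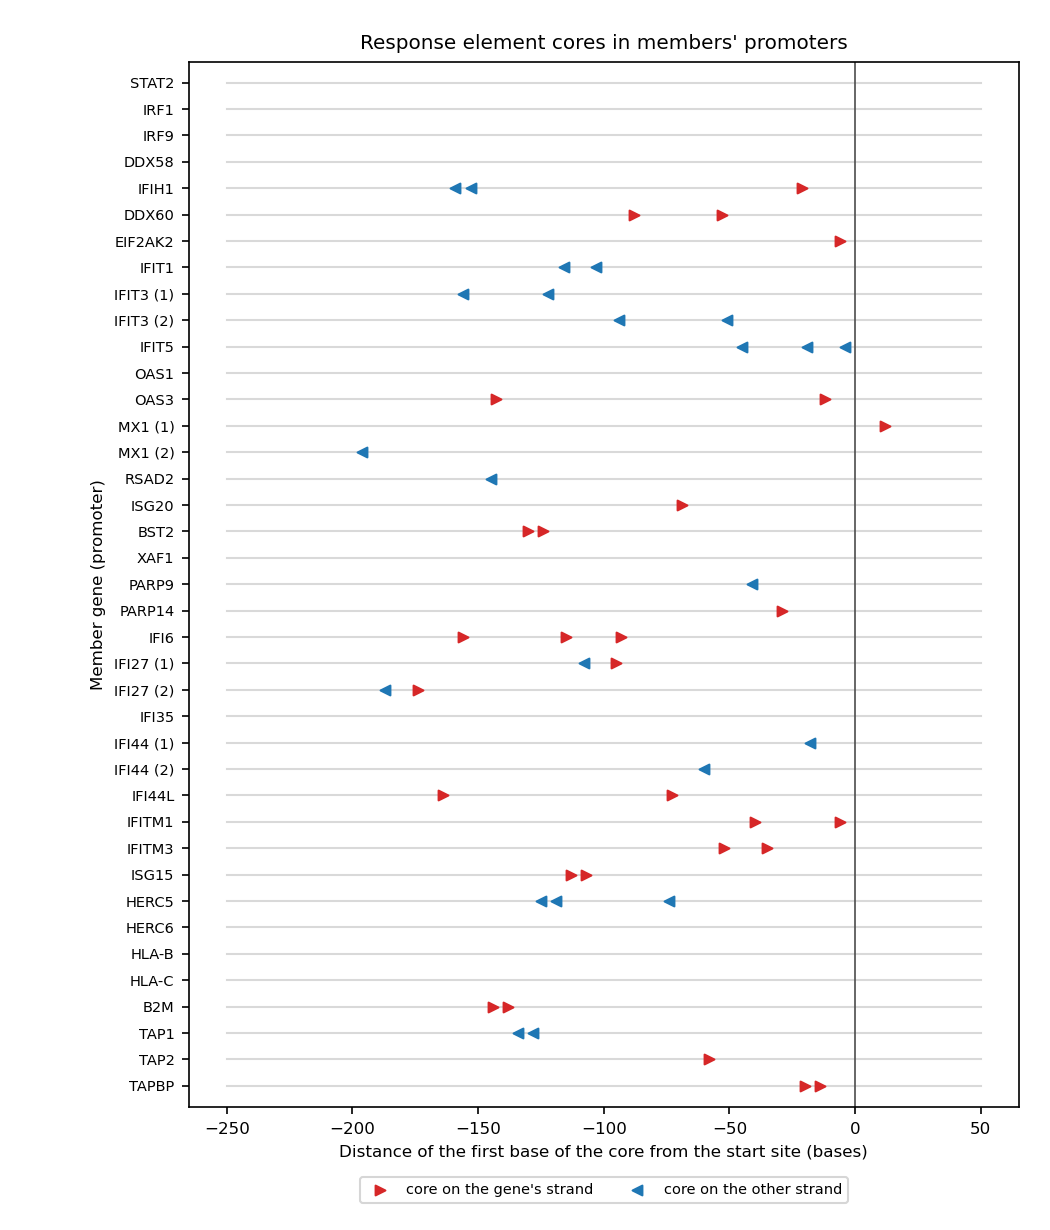
Each line is 1 RefSeq promoter of a member gene, from 250 bases before to 50 bases after the start site, and each triangle is 1 match to the response element core, pointing right on the gene's strand and left on the other strand; a number in brackets marks genes with several promoters holding a core, and a gene with none has 1 empty line. 25 of 35 genes held a core, every match but that of MX1 at position 12 began upstream of the start site, and 10 lines are empty.

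The interferon genes looked up were IFNB1, IFNE, IFNK, IFNL1, IFNL2, IFNL3 and IFNG, and 0 of these 7 ligands passed the filter on low counts. The most abundant was IFNE, an interferon of epithelia, with 5 counts in rapamycin 1, 9 in rapamycin 2, 5 in control 1 and 34 in control 2. Other interferon genes were not analysed here. IFNL3 and IFNG had 0 counts in every library, IFNB1 had 1 count in 1 library, and IFNL1 had 0 counts in both libraries numbered 1, 4 counts in control 2 and 9 in rapamycin 2. A count of 0 allows up to 0.158 CPM in rapamycin 1, 0.165 CPM in rapamycin 2, 0.139 CPM in control 1 and 0.127 CPM in control 2, which covers counting error only. All 6 receptor genes were tested. IFNGR1, a subunit of the type II receptor, was higher in number 2, with 41.3 CPM in rapamycin 1, 50.8 CPM in control 1, 283 CPM in rapamycin 2 and 169 CPM in control 2 (log2 fold change 2.25 ± 0.29 SE, adjusted p = 1e-06 by edgeR). IFNLR1, a subunit of the type III receptor, was higher in number 1, with 32.8 CPM in rapamycin 1 and 28.5 CPM in control 1 against 14.7 CPM in rapamycin 2 and 16 CPM in control 2 (adjusted p = 0.0154). The other receptor subunits and the kinases JAK1 and TYK2 did not pass either test. For rapamycin, IL10RB, a subunit of the type III receptor, had a log2 fold change of 1.12 ± 0.40 (adjusted p = 0.083), IFNGR2, a subunit of the type II receptor, of 0.88 ± 0.29 (adjusted p = 0.0543), JAK1 of 0.58 ± 0.25 (adjusted p = 0.161) and IFNAR1, a subunit of the type I receptor, of −0.13 ± 0.30.

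Rapamycin was compared with control within each number, by an additive edgeR fit that takes out the difference between numbers. The 3 genes that rose have different roles: IRF7, a transcription factor that drives type I interferon genes, DDX60, a helicase of antiviral RNA sensing, and HLA-B, a class I heavy chain. Each was higher with rapamycin in both pairs, by ratios of 1.48 to 2.22. Of the 44 genes, 3 were called higher (6.82%) and 0 lower, where 4.65% of all tested genes were called higher and 3.5% lower, so the share was near the background. At an unadjusted p below 0.05 there were 8 members (18.2%), against 23.6% of all tested genes in either direction. They were IRF7, DDX60, HLA-B, STAT2, OASL, MX1, IFITM1 and HLA-E, and none of the 8 was lower. The 23.6% was not split by direction, so the direction of the 8 has no share beside it. The median log2 fold change was 0.39 over the members and 0.05 over all tested genes. Without number in the fit, edgeR called 0 of the 44 and 0% of all tested genes in either direction, with 446 genes and 0 members at an unadjusted p below 0.05. DESeq2 with the same design called 3 members higher and 0 lower, namely DDX60, HLA-B and OASL, and gave 3 members no adjusted p. Upper-quartile scaling moved the split of calls over all genes from 736 higher and 554 lower to 805 higher and 360 lower, with 3 members higher in both.

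Between the libraries numbered 1 and 2, most of these genes differed. Of the 44 genes, 24 (54.5%) were higher in number 2 and 2 (4.55%) were higher in number 1, where 17% of all tested genes were higher in number 2 and 20.2% in number 1. The median log2 fold change for number 2 was 1.21 over the members and −0.03 over all tested genes. The 24 spanned log2 fold changes from 0.89 to 10.07, and 11 of them were above 4. Of these 11, RSAD2, BST2, IFI44L, IFITM1 and IFITM2 had under 10 counts in at least 1 library numbered 1, so that they passed the filter on low counts through number 2, where they are high, and their fold changes depend on the prior count. Apart from these 5, the highest was 8.08. Of the 36 members with at least 10 counts in every library, 19 (52.8%) were higher in number 2 and 0 in number 1, against 15.2% and 15.3% of the 12883 genes kept by that filter, and all 19 were among the 24. All 4 OAS genes, all 3 IFITM genes, 3 of 4 IFIT genes and 3 of 4 RNA sensors and kinase genes were among the 24, but 1 of 8 antigen presentation genes was. All 24 were higher in number 2 in both treatments, but they were called from these same libraries, so this adds no support. Without treatment in the fit, 20 members were higher in number 2 and 1 in number 1, against 7.85% and 11.5% of all tested genes. In the control libraries 20 members were at least 2-fold higher in number 2, where 13.6% of all tested genes were, and in the rapamycin libraries 26 members were, where 16.4% of all tested genes were. Both comparisons come from the same 4 libraries.

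**Figure D2:**
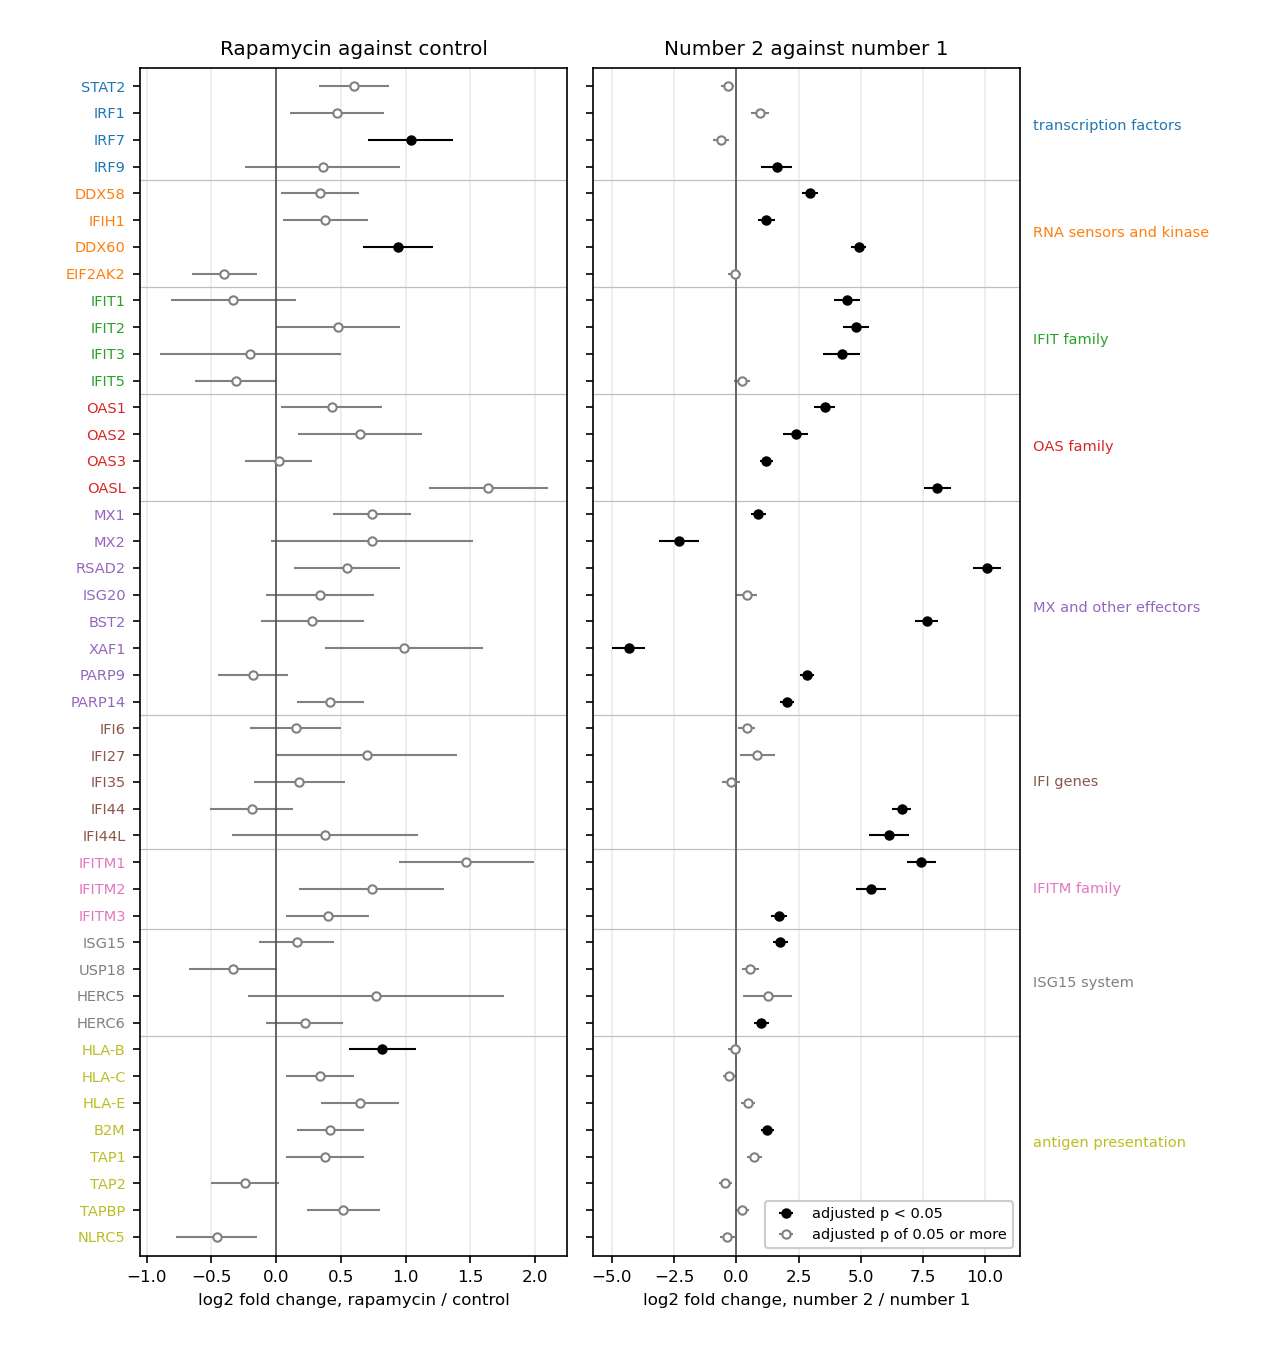
Points are log2 fold changes of the 44 member genes from 1 additive edgeR fit, with bars of 1 standard error, for rapamycin against control (left) and number 2 against number 1 (right); filled points passed an adjusted p of 0.05. On the left 3 genes passed, all to the right of 0, and on the right 24 genes passed to the right of 0 and XAF1 and MX2 to the left, on an axis several times wider.

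Among the transcription factors of the pathway, IRF7 (ENSG00000185507, chr11:612555-615950) was at 31.9 CPM in rapamycin 1 against 16.8 CPM in control 1, and at 22.5 CPM in rapamycin 2 against 10.1 CPM in control 2. Both rapamycin libraries lay above both controls, and within each treatment number 1 was the higher. The log2 fold change for rapamycin was 1.04 ± 0.33 (SE, adjusted p = 0.0492 by edgeR), close to the threshold: the adjusted p was 0.0891 with DESeq2, 0.0584 with no filter on low counts and 1 without number in the fit. IRF1, which activates MHC class I and many type II interferon targets, was at 51.0 CPM in rapamycin 1, 64.6 CPM in control 1, 72.3 CPM in control 2 and 176 CPM in rapamycin 2. Rapamycin 2 stood apart from the other libraries, and neither comparison passed (log2 fold change 0.47 ± 0.36 for rapamycin, adjusted p = 0.462, and 0.97 ± 0.36 for number 2, adjusted p = 0.0521). IRF9, the DNA-binding partner of STAT2, was the single factor of the 4 that was higher in number 2 (1.62 ± 0.61, adjusted p = 0.0364), at 0.894 CPM to 4.06 CPM, and its adjusted p was 0.289 with DESeq2 and 0.131 without treatment in the fit. STAT2 lay between 46.8 CPM in control 2 and 90.7 CPM in rapamycin 1, with a log2 fold change of 0.60 ± 0.27 for rapamycin (adjusted p = 0.168).

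The cytosolic RNA sensors were among the genes higher in number 2. DDX60 (ENSG00000137628, chr4:168216294-168325979), whose promoter with a pair of cores is printed above, was at 3.88 CPM in control 1, 7.52 CPM in rapamycin 1, 119 CPM in control 2 and 227 CPM in rapamycin 2. The libraries numbered 2 were far above those numbered 1, and within each number rapamycin was the higher. The ratio of rapamycin to control was 1.94 in pair 1 (95% exact interval 1.47 to 2.57, counting error only) and 1.91 in pair 2 (1.82 to 2.01). The log2 fold change was 0.94 ± 0.27 for rapamycin (adjusted p = 0.0285 by edgeR) and 4.92 ± 0.30 for number 2 (adjusted p = 5.08e-13). DDX58, which encodes the sensor RIG-I, had a log2 fold change for number 2 of 2.96 ± 0.32 (adjusted p = 1.1e-07), and IFIH1, which encodes the sensor MDA5, of 1.21 ± 0.33 (adjusted p = 0.00528, lost without treatment in the fit). EIF2AK2, the kinase PKR that blocks translation upon binding double-stranded RNA, did not differ between numbers by this test (−0.07 ± 0.25) and was at 126 CPM in both rapamycin libraries, 174 CPM in control 1 and 159 CPM in control 2.

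Beyond the members, 1 of the 9 tested sensing genes of the second list was called higher with rapamycin, where 4.65% of all tested genes were. A count of 1 is too small to set against that share. DHX58, which encodes LGP2, a regulator of both sensors, rose from 6.56 CPM in control 1 to 12.3 CPM in rapamycin 1 and from 13.6 CPM in control 2 to 34.3 CPM in rapamycin 2 (log2 fold change 1.13 ± 0.35, adjusted p = 0.0461 by edgeR), and was also higher in number 2 (1.27 ± 0.35, adjusted p = 0.00552). IRF3, the factor downstream of the sensors, was higher in number 1, with a log2 fold change for number 2 of −1.22 ± 0.26 (adjusted p = 0.000512). MAVS, the adaptor on mitochondria, passed neither test (0.17 ± 0.25 for rapamycin and 0.31 ± 0.25 for number 2).

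IFIT1 encodes a protein that binds viral RNA lacking the host's cap modifications, and IFIT2, IFIT3 and IFIT5 belong to the same family. IFIT1 (ENSG00000185745, chr10:89392623-89406487) was at 2.47 CPM in rapamycin 1, 7.11 CPM in control 1, 78.6 CPM in control 2 and 119 CPM in rapamycin 2. The numbers did not overlap, and rapamycin lay below control in pair 1 and above it in pair 2. Its ratio of rapamycin to control was 0.348 in pair 1 (95% interval 0.245 to 0.485) and 1.51 in pair 2 (1.42 to 1.61). IFIT2 was at 6.05 CPM in rapamycin 1, 9.10 CPM in control 1, 130 CPM in control 2 and 342 CPM in rapamycin 2, and IFIT3 at 4.89 CPM, 13.6 CPM, 116 CPM and 217 CPM in the same order. All 3 were higher in number 2, with log2 fold changes of 4.46 ± 0.53 (adjusted p = 0.000265), 4.81 ± 0.53 (adjusted p = 0.000349) and 4.23 ± 0.76 (adjusted p = 0.0227). For rapamycin their log2 fold changes were −0.33 ± 0.48, 0.48 ± 0.48 and −0.20 ± 0.70, and no IFIT gene passed. IFIT5 differed from its neighbours on chromosome 10, with 16.9 CPM in rapamycin 1, 20.7 CPM in control 1, 19.8 CPM in rapamycin 2 and 24.8 CPM in control 2, so that the numbers overlapped (0.24 ± 0.32 for number 2, adjusted p = 0.594).

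The OAS enzymes make the second messenger that activates RNase L on sensing double-stranded RNA, and OASL is a relative without that activity. OASL (ENSG00000135114, chr12:121017761-121039246) was at 1.39 CPM in control 1, 1.74 CPM in rapamycin 1, 179 CPM in control 2 and 937 CPM in rapamycin 2. In number 2, rapamycin was 5.25 times control (5.07 to 5.43), and in number 1 it was 1.25 times control, with an interval of 0.741 to 2.13 from 33 and 30 counts. The log2 fold change for number 2 was 8.08 ± 0.55 (adjusted p = 3.08e-06), and that for rapamycin was 1.64 ± 0.46, the highest of the 44, with an adjusted p of 0.0668 by edgeR, 0.029 with DESeq2 and 6.12e-05 with no filter on low counts. OAS1 and OAS2 had log2 fold changes for number 2 of 3.55 ± 0.41 and 2.38 ± 0.49, and OAS3, at 97.9 CPM to 288 CPM, of 1.21 ± 0.27.

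**Figure D3:**
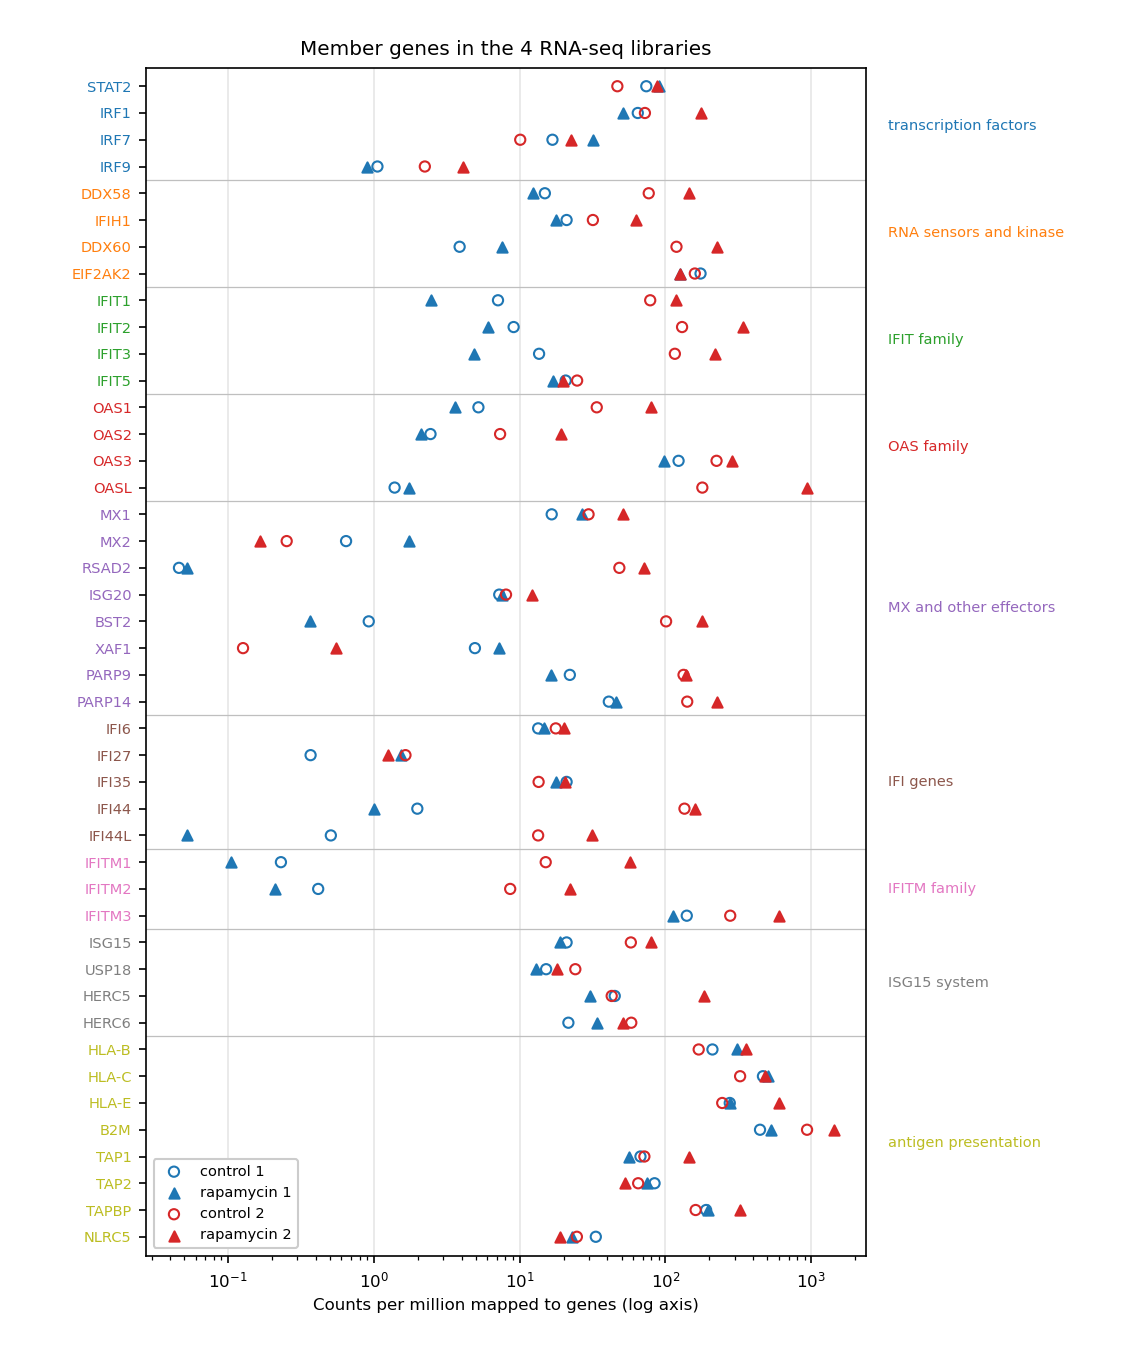
CPM of each of the 44 genes in each of the 4 RNA-seq libraries, on a log axis, with genes grouped by role; blue marks the libraries numbered 1, red those numbered 2, open circles control and filled triangles rapamycin. The numbers were far apart for RSAD2, BST2, OASL and DDX60, with red to the right, and for XAF1 with blue to the right, while in the antigen presentation genes other than B2M, which was higher in number 2, the colours lay closer together.

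The effector genes held differences between numbers in both directions. RSAD2 (ENSG00000134321, chr2:6865885-6898239) encodes viperin, an enzyme that makes a chain-terminating nucleotide. It had 1 count in rapamycin 1 and 1 count in control 1, against 1309 counts (71.8 CPM) in rapamycin 2 and 1144 counts (48.3 CPM) in control 2. The ratio of number 2 to number 1 was 1050 in the controls (187 to 41400) and 1370 with rapamycin (245 to 54000), intervals that are wide since the lower library had 1 count (adjusted p = 2.99e-14 by edgeR). BST2, which encodes tetherin, a membrane protein that holds budding viruses at the cell surface, was at 0.368 CPM in rapamycin 1, 0.924 CPM in control 1, 101 CPM in control 2 and 179 CPM in rapamycin 2 (log2 fold change for number 2 of 7.66 ± 0.46, adjusted p = 1.53e-09). PARP9 and PARP14, nearby genes on chromosome 3 for ADP-ribosylation proteins, were at 16.3 and 45.8 CPM in rapamycin 1, 22.1 and 40.9 CPM in control 1, 133 and 141 CPM in control 2 and 139 and 224 CPM in rapamycin 2, with log2 fold changes for number 2 of 2.84 ± 0.28 and 2.04 ± 0.27. MX1, a dynamin-like GTPase, was higher in number 2 by less (0.89 ± 0.30, adjusted p = 0.0203, lost without treatment in the fit). ISG20, an RNA exonuclease, passed neither test.

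XAF1 and MX2 ran the other way. XAF1, an interferon-induced gene that promotes apoptosis, had 138 counts (7.26 CPM) in rapamycin 1 and 107 counts (4.94 CPM) in control 1, against 10 counts (0.549 CPM) in rapamycin 2 and 3 counts (0.127 CPM) in control 2. The ratio of number 2 to number 1 was 0.0756 with rapamycin (0.0355 to 0.143) and 0.0257 in the controls (0.00521 to 0.077), and the test gave an adjusted p of 6.86e-06. MX2, a relative of MX1 that blocks retroviruses at the nucleus, had 33 and 14 counts in rapamycin 1 and control 1 and 3 and 6 counts in rapamycin 2 and control 2. Its ratio was 0.0948 with rapamycin (0.0186 to 0.302) and 0.392 in the controls (0.123 to 1.09), so that the controls alone did not separate beyond counting error. Its adjusted p was 0.0247 by edgeR and 0.344 with DESeq2. Both genes passed the filter on low counts through number 1, where they are high, and neither was tested when at least 10 counts were asked of every library.

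The IFITM proteins sit in cell membranes and hinder the fusion of viruses. The 3 genes are near copies of one another on chromosome 11, so that their counts are uncertain where reads could be shared. IFITM1 (ENSG00000185885, chr11:314040-315272) had 2 counts in rapamycin 1 and 5 in control 1, against 1049 counts (57.5 CPM) in rapamycin 2 and 357 counts (15.1 CPM) in control 2. The ratio of number 2 to number 1 was 65.3 in the controls (27.7 to 202) and 547 with rapamycin (151 to 4520), and the ratio of rapamycin to control was 0.456 in pair 1 (0.0434 to 2.78) and 3.82 in pair 2 (3.38 to 4.31). Its log2 fold change for rapamycin was 1.47 ± 0.52 (adjusted p = 0.0857 by edgeR, 0.483 with DESeq2 and 0.0449 with no filter on low counts). IFITM2 ran from 0.21 CPM to 22.2 CPM and IFITM3 from 112 CPM to 603 CPM, with log2 fold changes for number 2 of 5.41 ± 0.61 and 1.71 ± 0.32.

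The IFI genes were split. IFI44 and IFI44L, neighbours on chromosome 1, were higher in number 2 by log2 fold changes of 6.64 ± 0.37 and 6.13 ± 0.79, the latter from 1 count in rapamycin 1 and 11 in control 1 against 573 and 318 counts, while IFI6, IFI27 and IFI35 lay between −0.21 and 0.84 and did not pass. In the ISG15 system, ISG15, the ubiquitin-like modifier, was at 19.0 CPM in rapamycin 1, 21.0 CPM in control 1, 57.9 CPM in control 2 and 79.4 CPM in rapamycin 2 (1.76 ± 0.30 for number 2, adjusted p = 2.42e-05). The numbers did not overlap, and the log2 fold change for rapamycin was 0.16 ± 0.29. HERC5, the main ligase for ISG15, stood apart in 1 library, with 30.3 CPM in rapamycin 1, 44.9 CPM in control 1, 42.8 CPM in control 2 and 183 CPM in rapamycin 2. It passed neither test (0.77 ± 0.99 for rapamycin and 1.26 ± 0.99 for number 2). HERC6 was higher in number 2 (1.01 ± 0.30, adjusted p = 0.00871, and 0.109 without treatment in the fit), and USP18, which removes ISG15 and restrains the receptor, was not called.

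Of the 8 antigen presentation genes, 1 was called higher with rapamycin and 1 other was called higher in number 2. Over all tested genes, 4.65% and 17% were, and 1 gene is too few to set against those shares. HLA-B (ENSG00000234745, chr6:31353875-31357179) was at 311 CPM in rapamycin 1 and 358 CPM in rapamycin 2, against 210 CPM in control 1 and 169 CPM in control 2. Both rapamycin libraries lay above both controls, and the ratio was 1.48 in pair 1 (1.42 to 1.54) and 2.12 in pair 2 (2.04 to 2.21). The log2 fold change was 0.82 ± 0.26 for rapamycin (adjusted p = 0.048 by edgeR, 0.032 with DESeq2 and 1 without number in the fit) and −0.06 ± 0.26 for number 2. Class I genes are near copies of one another and differ between cell lines by allele, so that their counts are uncertain where reads could be shared. HLA-C was at 502 CPM in rapamycin 1, 466 CPM in control 1, 481 CPM in rapamycin 2 and 325 CPM in control 2 (0.34 ± 0.26 for rapamycin, adjusted p = 0.456). HLA-E, a class I molecule read by natural killer cells, was at 279 CPM, 276 CPM, 599 CPM and 245 CPM in the same order, with rapamycin 2 alone standing apart (0.65 ± 0.30 for rapamycin, adjusted p = 0.193).

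B2M, the light chain shared by all class I molecules, was the single one of the 8 that was higher in number 2, with 527 CPM in rapamycin 1, 445 CPM in control 1, 1420 CPM in rapamycin 2 and 935 CPM in control 2 (1.25 ± 0.26, adjusted p = 0.000407). Its log2 fold change for rapamycin was 0.42 ± 0.26. TAP1, a subunit of the transporter that carries peptides into the endoplasmic reticulum, was at 55.9 CPM in rapamycin 1, 67.4 CPM in control 1, 71.7 CPM in control 2 and 145 CPM in rapamycin 2 and passed neither test (0.73 ± 0.30 for number 2, adjusted p = 0.0645). TAP2, its partner, TAPBP, the loading chaperone tapasin, and NLRC5, the transactivator of class I genes, passed neither test, with log2 fold changes for rapamycin of −0.24 ± 0.26, 0.52 ± 0.28 and −0.46 ± 0.31.

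Of the second list, 46 further pathway genes of which 35 were tested, 2 were called higher with rapamycin and 0 lower (4.65% and 3.5% of all tested genes were), and 11 were higher in number 2 and 3 in number 1 (17% and 20.2% of all tested genes were). For rapamycin the share was near the background. Beside DHX58, the gene higher with rapamycin was HLA-F, a further class I heavy chain, at 69.8 CPM in rapamycin 1, 67.4 CPM in rapamycin 2, 47.6 CPM in control 1 and 25.9 CPM in control 2 (0.97 ± 0.29, adjusted p = 0.0382 by edgeR). Among presentation genes, CIITA, the transactivator of class II genes, was at 0.316 CPM in rapamycin 1, 0.416 CPM in control 1, 11.6 CPM in control 2 and 29.1 CPM in rapamycin 2 (5.62 ± 0.55 for number 2, adjusted p = 5.81e-09), from 6 and 9 counts in number 1. HLA-DRA, a class II chain, had 3 and 4 counts in rapamycin 1 and control 1 against 144 and 135 counts in rapamycin 2 and control 2 (5.23 ± 0.69, adjusted p = 6.53e-07). CIITA and HLA-DRA passed the filter on low counts through number 2, where they are high, so that a difference was built into their being tested, and without them 9 genes of the list were higher in number 2. CD74, the class II invariant chain, ran against them, at 84.6 CPM in rapamycin 1 and 82.5 CPM in control 1 against 32.3 CPM in rapamycin 2 and 16.2 CPM in control 2 (−1.87 ± 0.30, adjusted p = 1.73e-05). The immunoproteasome subunit PSMB10 was higher in number 2 by a log2 fold change of 2.76 ± 0.52 (adjusted p = 0.000104), and 3 of the 7 immunoproteasome and trimming genes were.

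Within the pairs, rapamycin went with different directions in these genes. In pair 1, 18 of the 44 were higher with rapamycin than without, with a median log2 difference of −0.20, where 50.2% of all tested genes were higher and their median was 0.00. In pair 2, 36 of the 44 were higher, with a median of 0.76, where 51.4% of all tested genes were higher and their median was 0.03. At least 2-fold higher in pair 2 were 15 members (34.1%), against 11.9% of all tested genes, and none was 2-fold lower, against 7.11%. They were IRF1, IRF7, IFIT2, OAS1, OAS2, OASL, IFI44L, all 3 IFITM genes, HERC5, HLA-B, HLA-E, TAP1 and TAPBP. In pair 1 only IFI27 was at least 2-fold higher (6.98% of all tested genes were), from 8 and 29 counts, and IFIT1 and IFIT3 were at least 2-fold lower (3.4% were). These differences are on the scale of log2(CPM + 0.5), which understates those of low genes. The directions were the same in both pairs for 15 members that were higher (34.6% of all tested genes) and for 5 that were lower (31.8%), EIF2AK2, IFIT5, USP18, TAP2 and NLRC5. They were opposite for 24 members (54.5%), where 30.1% of all tested genes were opposite.

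For 16 of the 24, the counting intervals of both ratios excluded 1, and 15 of these had a ratio below 1 in pair 1 and above 1 in pair 2. The 16 are 36.4% of the members, where 9.83% of all tested genes were opposite by the same intervals, and the 15 are 34.1%, where 5.88% were. Among them, IRF1 had ratios of rapamycin to control of 0.789 in pair 1 (0.726 to 0.857) and 2.43 in pair 2 (2.29 to 2.58), and HERC5 of 0.674 (0.607 to 0.748) and 4.27 (3.98 to 4.58). IFIT2 had ratios of 0.665 (0.524 to 0.841) and 2.64 (2.52 to 2.75), and TAP1 of 0.829 (0.765 to 0.898) and 2.03 (1.91 to 2.16). HERC6 ran the other way, with 1.57 (1.39 to 1.77) and 0.874 (0.804 to 0.951). With 1 library per number and treatment, the difference between the pairs leaves no residual degrees of freedom and was not tested, and the intervals cover counting error only.

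**Figure D4:**
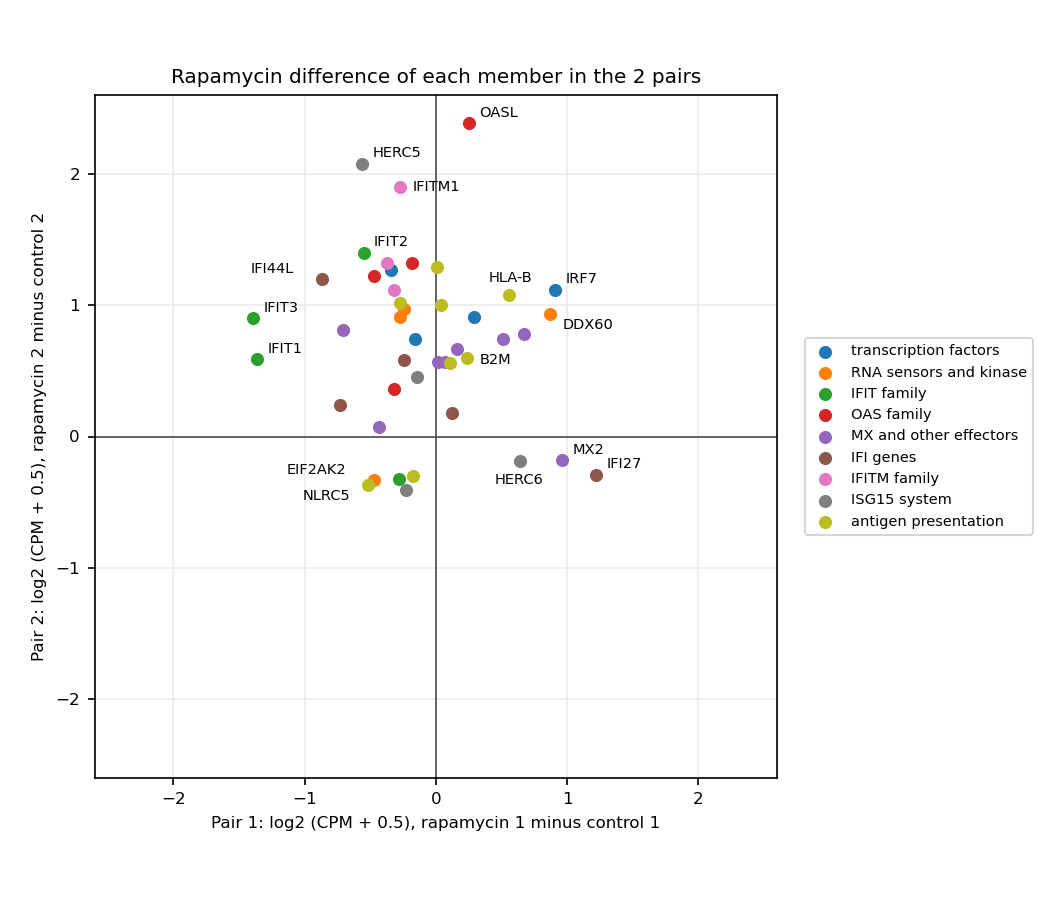
Each point is 1 member gene, with its rapamycin difference in pair 1 on the horizontal axis and in pair 2 on the vertical axis, both in log2(CPM + 0.5), coloured by role. The upper left, lower in pair 1 and higher in pair 2, holds most of the 24 genes with opposite directions, IRF7, DDX60 and HLA-B lie in the upper right, and the lower left holds the 5 genes that were lower in both pairs.

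m6A peaks were listed on 17 of the 44 genes, and 27 had none. The lists were made from 1 pair of libraries each, so every value below is that of 1 pair, and no test was run on them. Of the members, 4 (9.09%) had a peak in HSC3 control, 5 (11.4%) in HSC3 rapamycin, 12 (27.3%) in CAL33 control and 8 (18.2%) in CAL33 rapamycin. Of all genes tested in RNA-seq, 17.6%, 17.5%, 16.1% and 14.2% had one in the same order. There were 38 member peaks in all, 22 annotated to coding sequence, 15 to the 3′ UTR and 1 to exon. Peaks in CAL33 only were listed for 10 members, HLA-E, IFI44, IFIT1, IFIT3, IFITM2, NLRC5, OASL, STAT2, TAP1 and TAP2, and in HSC3 only for EIF2AK2, ISG15 and TAPBP. The 10 are 22.7% of the members and the 3 are 6.82%, where 9.05% of all tested genes had peaks in CAL33 only and 12.2% in HSC3 only, and 9.09% of the members had peaks in both lines, against 14.1%. A peak can be called only where a transcript is present. The 10 members with peaks in CAL33 only had a median of 18.7 CPM in the RNA-seq libraries numbered 1 and of 104 CPM in those numbered 2, and the 3 with peaks in HSC3 only of 150 and 142 CPM. The part of transcript level in the peak lists was not tested.

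By overlap, most member peaks were found in 1 treatment only, as were most peaks of all genes. A peak was called lost or gained with rapamycin when it overlapped no peak of the other treatment in the same line by at least 1 bp. In HSC3, 2 of 4 member peaks were lost and 5 of 7 gained, where 71.8% of all control peaks were lost and 71.6% of all rapamycin peaks gained. In CAL33, 13 of 17 were lost and 6 of 10 gained, where 74.9% and 70.1% of all peaks were. The shares of the members were near the background or rested on 10 peaks or fewer. The shares depend on the rule. When any peak on the same gene counted as shared, between 45.1% and 50.2% of all peaks were lost or gained. Of the member peaks, 2 of 4 were then lost and 3 of 7 gained in HSC3, and 7 of 17 and 2 of 10 in CAL33. Losses in CAL33 included a 3′ UTR peak of IFITM2, at chr11:309034-309361, with a fold enrichment (IP over input) of 175, at percentile 82.9 of its list, and a peak in the 3′ UTR of IFIT1, at chr10:89403671-89403821, of 72.4. Gains included a coding peak of NLRC5 in CAL33, at chr16:57026024-57026234, of 123 and a 3′ UTR peak of EIF2AK2 in HSC3, at chr2:37106518-37106697, of 109. IFIT1 also gained a coding peak in CAL33, at chr10:89402563-89402742, of 13.9.

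**Figure D5:**
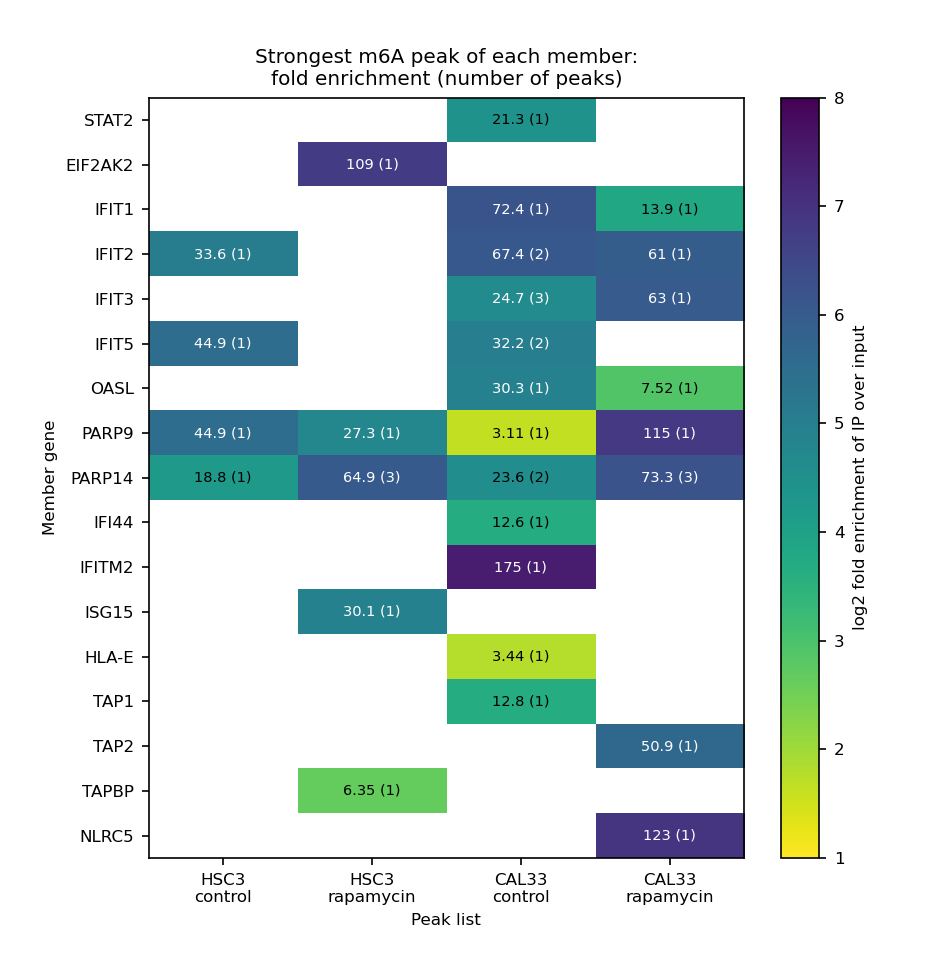
Rows are the 17 member genes with an m6A peak and columns the 4 peak lists; each filled cell gives the fold enrichment of IP over input of the gene's strongest peak, with the number of its peaks in brackets, and blank cells are genes with no peak in that list. PARP9 and PARP14 have a peak in every list, and the CAL33 control column is the fullest with 12 genes.

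PARP9 and PARP14 were the 2 members with a peak in all 4 lists. A coding peak of PARP14 was found at the same place in each of them. It spanned chr3:122718542-122718692 in HSC3 control, with a fold enrichment of 18.8 (percentile 36.1 of its list), and chr3:122718512-122718722 in HSC3 rapamycin, with 64.9 (percentile 68.7). In CAL33 it spanned chr3:122718422-122718782 in control, with 23.6 (percentile 34.9), and chr3:122718362-122718752 with rapamycin, with 13.1 (percentile 23.6). By the percentile of the p-value, the peak was at 70.3 in HSC3 control and 91.2 in HSC3 rapamycin. In CAL33 it was at 98.6 in control and 97.6 with rapamycin. The lower place in the CAL33 rapamycin list was thus seen in fold enrichment and hardly in the p-value. A coding peak of PARP9 was shared by 3 lists, at 44.9 in HSC3 control, 27.3 in HSC3 rapamycin and 115 in CAL33 rapamycin, and in CAL33 control PARP9 had a peak of 3.11 at another place. The percentile of the p-value of the shared peak was 28.1 in HSC3 control, 19.7 in HSC3 rapamycin and 96.5 in CAL33 rapamycin.

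Of the IFIT and OAS genes, IFIT1, IFIT3 and OASL had peaks in CAL33 only, where 9.05% of all tested genes did. IFIT2 and IFIT5 had peaks in both lines, where 14.1% did, and OAS1, OAS2 and OAS3 had none. The 3′ UTR of IFIT2 held a peak at the same place in 3 lists, with a fold enrichment of 33.6 in HSC3 control, 67.4 in CAL33 control and 61.0 in CAL33 rapamycin. The percentile of its p-value was 22.3 in HSC3 control, 96.2 in CAL33 control and 99.8 in CAL33 rapamycin. A coding peak of IFIT3 was listed in both CAL33 lists, at 24.7 in control (percentile 35.6) and 63.0 with rapamycin (percentile 65.4). IFIT5 had a coding peak at the same place in both control lists, at 44.9 in HSC3 and 32.2 in CAL33, and none with rapamycin. The peaks of OASL in CAL33 overlapped by 150 bases across the end of the coding sequence, at 30.3 in control (percentile 41.8) and 7.52 with rapamycin (percentile 11.6). By the percentile of the p-value in place of fold enrichment, that order was reversed, with 89.7 in control and 98.2 with rapamycin.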

How the data were processed

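The RNA-seq table, as deposited, holds read counts for each gene under an Ensembl identifier and is not normalized. The submitters' processing notes list cutadapt 2.5, HISAT2 2.1.0, featureCounts 1.6.3, HOMER 4.10.4 and the build hg38, while the table's own name points to another counter, so the counter is not settled, and the use of strand in counting is not given in the sources used here. The authors made the deposited MeRIP-seq lists from 1 IP and input pair each and give every peak a fold enrichment (the ratio of IP to input), p and false discovery values on a log10 scale, and a score. The peak caller is not given, and the depth behind the peaks is unknown. Symbols were matched through RefSeq (GRCh38.p14) for 57532 (98.7%) of the identifiers, with DDX58 matched by its current symbol.

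The test was run in edgeR 4.0.16 under R 4.3.3 (filterByExpr, TMM, robust quasi-likelihood test of number plus treatment, Benjamini-Hochberg adjustment over 15826 genes, threshold 0.05), since the gene group is defined on libraries paired by number. The number differences of the 2 treatments correlated at 0.885 across genes. Intervals of ratios are 95% exact conditional ones. Peaks and promoters were handled in Python 3.11.15. Alternatives were no block, DESeq2 1.42.0, upper-quartile scaling, other filters, each library left out, stricter peak and overlap rules and a longer motif.

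Genes given in full were those passing the rapamycin test, the 4 largest called in each direction between numbers, the 3 with most CPM, IFIT1, ISG15, IRF1, HLA-B, B2M and TAP1, and those with peaks in 2 or more lists; of the second list, those passing the rapamycin test and the 4 largest between numbers. IRF3, MAVS, IFNLR1, CD74 and other genes named beyond these were chosen after their values were seen. The members and lists were chosen with earlier results of these data known.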

Additional observations from a re-analysis of the deposited data

Results flagged for a closer look

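The rapamycin difference went in opposite directions in the numbered pairs for 16 genes, in each of which both counting intervals excluded a ratio of 1 (36.4% of the members, against 9.83% of all tested genes). The log2 difference of pair 2 minus that of pair 1 was 2.64 for HERC5, 2.29 for IFIT3, 2.07 for IFI44L, 1.95 for IFIT1 and 1.95 for IFIT2. It was 1.69 for OAS1, 1.61 for IRF1, 1.52 for BST2, 1.44 for IFITM3, 1.29 for TAP1, 1.21 for IFIH1 and 1.18 for DDX58. It was 0.97 for IFI44, 0.82 for IFI35 and 0.68 for OAS3, and −0.83 for HERC6, the single gene of the 16 with rapamycin above control in pair 1 and below it in pair 2. The difference between the pairs was not tested, since 1 library per number and treatment leaves no residual degrees of freedom.

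For the coding peak of PARP14 in all 4 lists, the percentile of fold enrichment with rapamycin minus that in control was 32.6 in HSC3. In CAL33 it was −11.3. By the p-value the peak was at percentile 70.3 in control and 91.2 with rapamycin in HSC3, and at 98.6 and 97.6 in CAL33. The lists differ in length, with 3930 control and 3952 rapamycin peaks in HSC3 and 3625 and 3079 in CAL33. A difference in percentile is therefore one of place in a list and need not be a change of the peak. Each value is that of 1 pair of libraries and the difference was not tested.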

How the results depend on the processing

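Without the replicate block, edgeR called 0 genes higher and 0 lower with rapamycin over all genes, and 0 members; the common dispersion was 0.636, against 0.061 with the block. DESeq2 called 416 genes higher with rapamycin in place of 736, and upper-quartile scaling 360 lower in place of 554. Without treatment in the fit, 1243 genes were higher in number 2 and 1814 in number 1, and 1 member was higher in number 1, which was also the count with DESeq2. With at least 10 counts in every library, 1974 genes and 0 members were higher in number 1, since XAF1 and MX2 were no longer tested, and 1953 genes and 19 members were higher in number 2, since RSAD2, BST2, IFI44L, IFITM1 and IFITM2 were no longer tested. With no filter on low counts, 4 members were higher with rapamycin (DDX60, HLA-B, OASL and IFITM1) and 27 in number 2, where IRF1, HERC5 and TAP1 were added. These settings changed the direction of no called member.

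Without 1 library the additive fit has no residual degrees of freedom, so that its values are those of the other pair, given above. Fits of 3 libraries without the block were chosen after seeing the data. Each leaves 1 group with 1 library, so that the other group alone gives the spread. With all 4 libraries, the fit without the block already called 0 genes for rapamycin. The fits of 3 libraries could therefore show no loss of rapamycin calls, whichever library was left out. Between numbers they called 860 genes higher in number 2 and 1372 in number 1 without rapamycin 1, 1501 and 2436 without rapamycin 2, 735 and 1523 without control 1, and 2093 and 2411 without control 2, with 15 to 26 members higher in number 2 and 1 in number 1 throughout. The 15 were without rapamycin 1, against 20 in the 4 libraries by the same kind of fit.

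When any peak on the same gene counted as shared, member peaks gained were 3 of 7 in HSC3 and 2 of 10 in CAL33, and those lost were 2 of 4 in HSC3 and 7 of 17 in CAL33, where 45.3% and 45.1% of all peaks were gained and 46.1% and 50.2% lost. With peaks under a false discovery rate of 0.05, CAL33 control had 11 members in place of 12, since the TAP1 peak did not pass. Depth limits the genes under 10 counts in any library, 8 of the 44, whose fold changes depend on the prior count.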

Other observations

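Further genes of the second list, not named above, were higher in number 2 by the same edgeR test. TLR3, the endosomal sensor of double-stranded RNA, had a log2 fold change of 2.04 ± 0.47 (adjusted p = 0.000962), at 2.26 and 3.14 CPM in rapamycin 1 and control 1 and 12.4 and 9.84 CPM in rapamycin 2 and control 2. TMEM173, which encodes the adaptor STING, had 1.28 ± 0.32 (adjusted p = 0.00234). Of the presentation genes, ERAP1, which trims peptides, had 1.04 ± 0.28 (adjusted p = 0.00419), TAPBPL, a relative of tapasin, 1.62 ± 0.33 (adjusted p = 0.000288) and PSMB9, an immunoproteasome subunit, 1.02 ± 0.36 (adjusted p = 0.0296). PIAS1, an inhibitor of STAT signalling, had 0.99 ± 0.29 (adjusted p = 0.0072). With IFNGR1, DHX58, PSMB10, CIITA and HLA-DRA these make the 11 that were higher in number 2. None of these genes apart from DHX58 passed the test for rapamycin.

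SOCS3, a feedback inhibitor of cytokine receptors, stood low in control 2 alone, at 11.9 CPM against 36.9 CPM in rapamycin 1, 35.5 CPM in control 1 and 83.4 CPM in rapamycin 2, and passed neither test (1.42 ± 0.94 for rapamycin, adjusted p = 0.489).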
